A study of Drosophila melanogaster with 3 samples.

Results

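The genes described here are 38 *Drosophila melanogaster* genes of the developing nervous system, and the question was where CG12104 had peaks at them. They were taken from a named list that runs from proneural and glial fate genes through neuroblast and pan-neuronal genes to synaptic, ion channel and axon guidance genes. All 38 were found by symbol in the Ensembl annotation, among 13945 protein-coding genes on the 6 chromosome arms that carried reproducible peaks. Chromatin immunoprecipitation with sequencing (ChIP-seq) was done on whole embryos of 0 to 24 h and of pooled sexes, in 3 biological replicates. All replicates came from the same transgenic line, which stably makes CG12104, a protein listed among the HMG-box factors, with GFP joined to its C-terminus, and the precipitating antibody was directed against GFP. Sonicated fragments were 200 to 800 bp long. There is 1 group and no untagged sample was analysed here, so the genes were set beside all protein-coding genes and the replicates beside each other.

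A fly neuron arises in steps, each served by some of these genes. Proneural transcription factors of the basic helix-loop-helix class give ectodermal cells the competence to become neural precursors, neuroblasts then divide asymmetrically, and their daughters differentiate into neurons or glia. Differentiated neurons make RNA-binding proteins of the ELAV family, ion channels and the vesicle release machinery, and their axons are steered by secreted ligands such as Slit and the Netrins acting on Robo and Frazzled receptors. Most of these genes are active in a part of the embryo only. In whole embryos, a peak shared by few cells and a weaker peak shared by many cannot be told apart.

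A promoter peak here is a region whose summit lies within 500 bp of any annotated transcription start site (TSS) of the gene. A distal peak has its summit in the gene body, or has the gene's TSS as the nearest one within 5 kb, and lies more than 500 bp from the gene's own start sites. The authors' reproducible set in the dm6 build, which they chose by irreproducible discovery rate (IDR), has 4060 peaks. It is the part of the pooled list of 26959 regions with the highest signal, from 106 upwards. Signal is the authors' peak value on the scale of each list, so replicates are compared by rank, where 1 is the highest. Each replicate's own list held 30000 regions, and its 4060 regions of highest signal are called its top regions.

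*elav*, which encodes the RNA-binding protein used as the standard marker of neurons, was the only listed gene with a promoter peak in the IDR set. The gene (FBgn0260400) lies on the minus strand of X from 509235 to 523226. The peak at X 523418 to 523606 had its summit 293 bp upstream of an *elav* TSS, a pooled signal of 623, a rank of 121 in the pooled list and a q of 0.00029. In replicate 1 the matching region had a signal of 204 and a rank of 175. In replicate 2 the signal was 257 and the rank 146, and in replicate 3 they were 164 and 69. The region was thus near the top of every list. A second, weaker *elav* peak lay in an intron at X 522413 to 522862, with its summit 588 bp downstream of a TSS and 881 bp from the first summit. Its pooled signal was 195, and its ranks were 1761, 2095 and 1042 in replicates 1, 2 and 3, all within the top regions. Both summits also lay inside the annotated body of the overlapping gene *arg*, outside its exons.

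The sequences around both *elav* summits are given below as the plus strand, 100 bp to each side of the summit, from the NCBI Release 6 assembly. The promoter window is chrX:523419-523619 and the intron window chrX:522538-522738. Capitals mark any of the 7 words searched, on either strand. Here these are GAGAG in both windows, with AACAAT and also ACACAC in the intron window. GAGAG is part of the sequence recognised by the GAGA factor.
elav promoter summit: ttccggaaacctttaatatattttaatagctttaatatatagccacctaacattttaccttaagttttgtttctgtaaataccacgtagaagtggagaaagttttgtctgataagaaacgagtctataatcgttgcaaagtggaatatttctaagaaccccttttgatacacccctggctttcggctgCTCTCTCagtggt
elav intron summit: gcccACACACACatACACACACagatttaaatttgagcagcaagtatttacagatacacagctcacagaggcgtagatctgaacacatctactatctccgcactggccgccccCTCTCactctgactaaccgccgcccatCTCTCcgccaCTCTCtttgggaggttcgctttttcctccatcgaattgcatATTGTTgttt
In the promoter window the marked word lies near the downstream end of the printed strand, while the intron window holds CTCTC in separate places and runs of ACACAC at its start.

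The other ELAV family genes had weaker regions at their start sites. *fne*, a paralog of *elav*, had a pooled promoter region with a signal of 85.1 and a rank of 5576 (q = 0.0691), below the IDR set. The region ranked 8888 in replicate 1 and 4722 in replicate 2, and no promoter region of *fne* was listed in replicate 3. *Rbp9*, the third member of the family, had a signal of 54.8 and a rank of 11120 (q = 0.501). All 3 genes of the family thus had a pooled promoter region, in a list that gives one to 46.2% of all protein-coding genes. Only that of *elav* reached the IDR set.

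The 4 genes of vesicle release had no IDR peak of either kind. Of all protein-coding genes, 18.7% had a promoter peak and 9.21% a distal one. Of those with a body of at least 20 kb, as *brp* and *Syt1* have, 24.5% and 44.0% did. The group holds only 4 genes, and its lack of peaks was not tested. *Syx1A*, the plasma membrane SNARE syntaxin, came nearest, with a pooled promoter signal of 95.7 and a rank of 4691 (q = 0.0306). Its highest promoter region ranked 2395 in replicate 1, 4492 in replicate 2 and 3793 in replicate 3, so it was a top region in 2 of the 3 replicates. The summits of these regions lay at -445, -128 and 80 bp from the TSS. *Syt1*, the calcium sensor of vesicle fusion, had a pooled signal of 61.8 and a rank of 9053 (q = 0.337). The vesicle SNARE gene *nSyb* had no promoter region in the pooled list or in any replicate. The active zone scaffold gene *brp* had none in the pooled list, and in replicates 1 and 2 its regions ranked 25855 and 26651.

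Among the 6 ion channel genes none had an IDR promoter peak, beside 18.7% of all protein-coding genes. The pooled list gives a promoter region to 46.2% of all protein-coding genes. It had one at the potassium channel genes *Shab*, *Sh* and *eag*, with signals of 70.3, 41.1 and 37.6 (q = 0.196, 0.848 and 0.918). The calcium-activated potassium channel gene *slo* had promoter regions in the replicate lists only, with ranks between 9138 and 25994. The sodium channel gene *para* and the calcium channel gene *cac* had none in any list. *Appl*, which encodes the amyloid precursor-like protein, and *futsch*, which encodes a microtubule-associated protein, had pooled promoter signals of 37 and 43.7 (q = 0.927 and 0.786). The lowest signal in the IDR set was 106, so all of these lay well below it.

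Of the 4 proneural, 3 glial fate and 7 neuroblast genes, 1, 0 and 1 had a promoter region in the pooled list. That list gives such a region to 46.2% of all protein-coding genes. These groups are small, and the difference was not tested. Of the proneural genes *ac*, *sc*, *l(1)sc* and *ato*, only *ato* had a pooled promoter region, with a signal of 55.3 (rank 10932, q = 0.488). The glial genes *repo*, *gcm* and *gcm2* had no promoter region in the pooled list or in any replicate. The same was true of the neuroblast genes *ase* and *wor*. *dpn* and *nerfin-1*, a Hes-type repressor gene and a zinc finger gene of neuronal differentiation, had 1 region each in a single replicate, with ranks of 14518 and 23160. *pros*, the homeodomain factor that is handed to the daughter of the dividing neuroblast, had 1 at rank 23984 in replicate 3, and *mira*, its adaptor, had 1 at rank 29073 in replicate 2. *insc*, which orients the neuroblast division, differed from the rest of this group: its pooled promoter signal was 90.9 (rank 5083, q = 0.0454), its rank was 7974 in replicate 1 and 3350 in replicate 2, and no promoter region of it was listed in replicate 3.

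Axon guidance genes had pooled promoter regions in 6 of 9 cases, all below the IDR set, in a list that gives such a region to 46.2% of all protein-coding genes. The highest was at *Fas2*, a cell adhesion gene of axon bundles, with a signal of 97.8 and a rank of 4547 (q = 0.0265). Its promoter region ranked 6316, 5644 and 5740 in replicates 1, 2 and 3. The Slit receptor gene *robo2* had a pooled signal of 67.1, and its highest promoter region ranked 3245, 20613 and 5121 in replicates 1, 2 and 3. Those replicate summits lay at -396, 124 and -45 bp from the TSS, so they do not mark a single position. *sli*, the Slit ligand gene, had a pooled signal of 55.6 and ranked 8183, 11879 and 3226 in the replicates, with summits at 394, -233 and 399 bp from a TSS. Each of these 2 genes thus had a top region at a start site in 1 replicate and lower ones in the others. *robo1*, *fra* and *NetB* had pooled signals of 60.9, 47.8 and 35.1 (q = 0.357, 0.689 and 0.954). *comm*, *Dscam1* and *NetA* had no pooled promoter region.

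**Figure D1:**
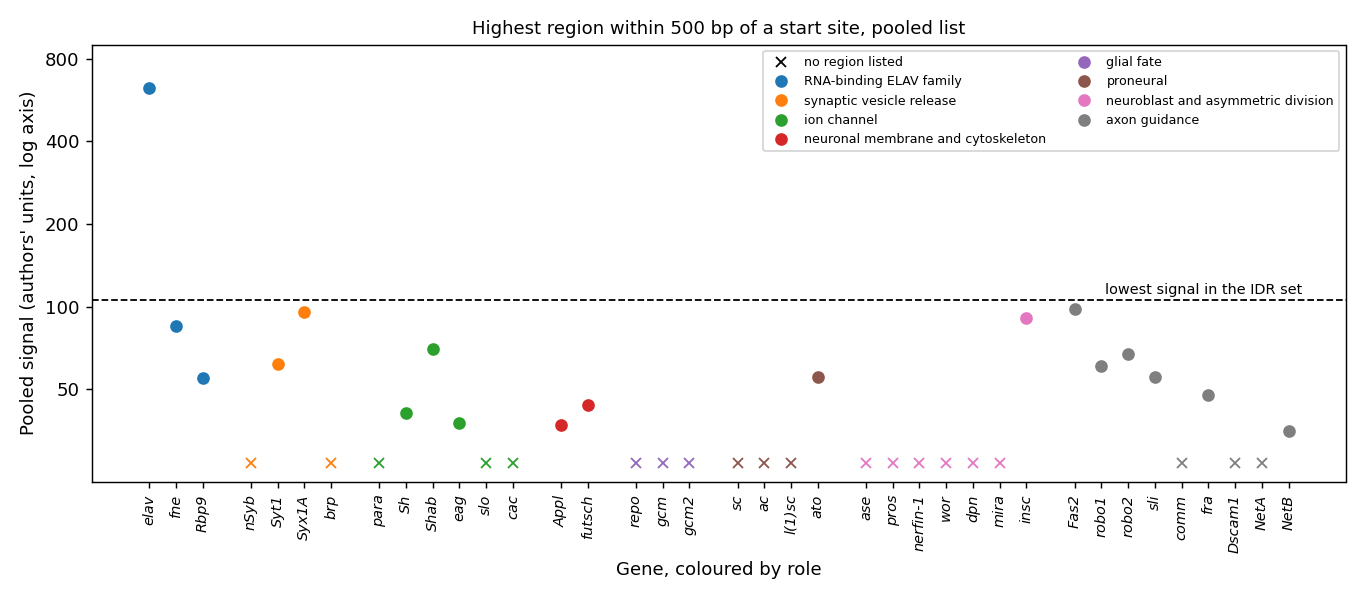
Pooled signal (authors' units, log axis) of the highest region within 500 bp of a TSS for each of the 38 genes, ordered and coloured by role, with a cross where the pooled list has no such region. Only *elav*, at 623, lies above the dashed line at 106, the lowest signal in the IDR set, and 17 other genes lie between 35.1 and 97.8.

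Counted over the list, promoter peaks were rarer than over all genes in the strict lists, and about as frequent in the permissive one. In the IDR set 1 of 38 genes had a promoter peak (2.63%, 95% Wilson interval 0.466 to 13.5), beside 18.7% of all protein-coding genes. In the replicates' top regions 3 of 38 genes (7.89%) had one in replicate 1, beside 20.2% of all genes. In replicate 2 there were 2 (5.26%), beside 17.0%, and in replicate 3 there were 3 (7.89%), beside 16.9%. Their mean share was 7.02% ± 1.52 (SD, n = 3), beside 18.0% ± 1.85 for all genes. *elav* was among them in every replicate, joined by *Syx1A* and *robo2* in replicate 1, by *insc* in replicate 2 and by *Syx1A* and *sli* in replicate 3. In the whole pooled list 18 of 38 genes (47.4%) had a promoter region, beside 46.2% of all genes. Of the genes with such a region, 1 of 18 listed genes (5.56%) also had a promoter peak in the IDR set, beside 40.5% of 6449 protein-coding genes. The median of the highest promoter signal was 58.2 over the 18 and 84.2 over the 6449. No test was made on these shares, since the list was chosen with results of these data known, and the Wilson interval covers counting error only.

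**Figure D2:**
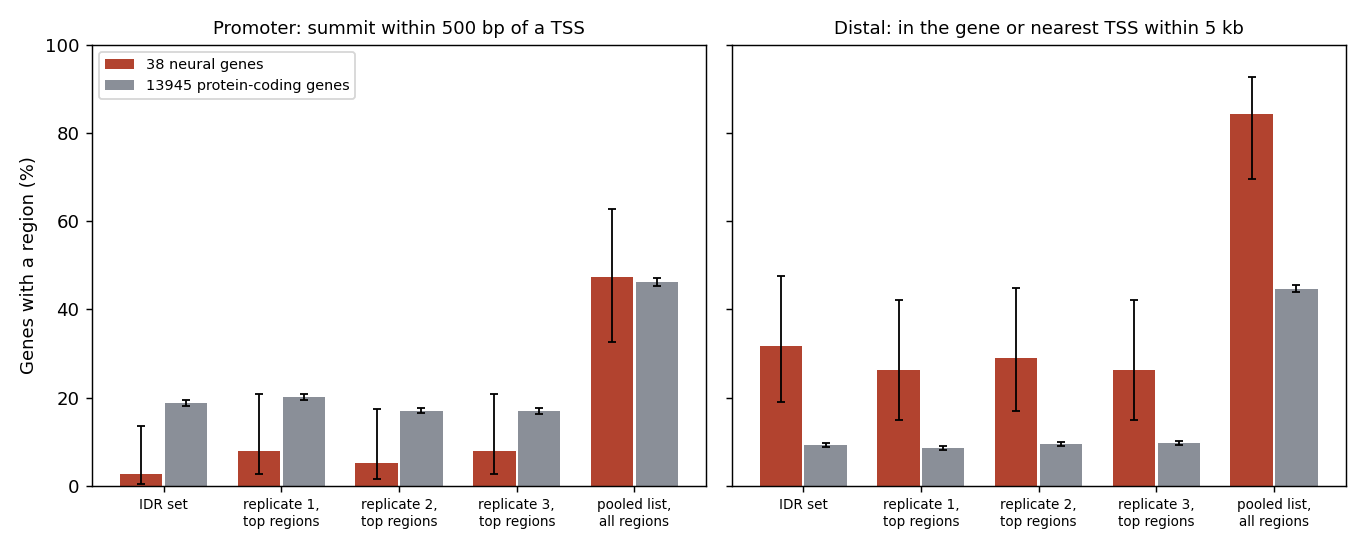
Share of genes (%) with a promoter region (left) and a distal region (right) for the 38 neural genes (red) and all 13945 protein-coding genes (grey), in the IDR set, in the 4060 top regions of each replicate and in the pooled list, with 95% Wilson intervals as bars. The promoter shares of the neural genes are 2.63% to 7.89% outside the pooled list, and their distal shares are 26.3% to 31.6% there, beside 8.63% to 9.67% of all genes.

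Distal peaks were found at more of these genes. In the IDR set 12 of 38 genes (31.6%, Wilson interval 19.1 to 47.5) had a distal peak, beside 9.21% of all protein-coding genes. In the top regions of replicates 1, 2 and 3 there were 10, 11 and 10 genes (26.3%, 28.9% and 26.3%), beside 8.63%, 9.52% and 9.67% of all genes. In the pooled list 32 genes (84.2%) had a distal region, beside 44.7% of all genes. The 12 genes held 21 distal IDR peaks, of which 17 had their summit in an intron, 2 in a non-coding exon and 2 upstream of the gene. None of the 21 summits lay within 500 bp of the TSS of any other protein-coding gene. Their median pooled signal was 147 (range 107 to 306), beside 157 over 1790 distal peaks of the IDR set that were no promoter peak.

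Gene length differed between the neural genes and the rest. The median body length was 21.2 kb over the 38 genes and 2.17 kb over all protein-coding genes. Genes of at least 20 kb, a limit chosen after seeing the data, had a distal IDR peak in 10 of 19 cases among the neural genes (52.6%), beside 44.0% of 1013 protein-coding genes of that length. Per length of gene body outside promoter windows, the 38 genes had 1.67 IDR summits per 100 kb (19 summits), beside 1.87 over all protein-coding genes (1470 summits). The Wilson interval of the share among the 19 long neural genes was 31.7 to 72.7%, which covers counting error only. The density over the 38 genes was not higher than over all genes. Whether gene length accounts for the larger distal share was not tested. For promoters the comparison kept its direction: 0 of the 19 long neural genes carried a promoter peak (3 counts in 19 would be 15.8%, and the upper Wilson bound is 16.8%), beside 24.5% of long genes in general. Within promoter windows the 38 genes had 1.54 IDR summits per 100 kb (1 summit), beside 13.3 over all protein-coding genes.

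The 9 axon guidance genes held 13 of the 21 distal peaks, at 6 of the genes. Most of the 9 are long, with bodies of up to 73.2 kb. Of all protein-coding genes of at least 20 kb, 44.0% had a distal IDR peak. The Netrin genes, whose products are secreted guidance ligands, lie next to each other on X and have bodies of 49.9 and 63.3 kb. These 2 genes held 8 of the 13 peaks. *NetA* had 5 intronic peaks, with pooled signals between 116 and 189 and summits 18932 to 41362 bp downstream of the nearest *NetA* TSS. *NetB* had 3, of which the strongest, in an intron 31577 bp from the nearest *NetB* TSS, had 250 as its pooled signal and ranked 985, 1164 and 768 in replicates 1, 2 and 3. The weakest *NetB* peak had a pooled signal of 108. The interval from *NetA* to *NetB* spans 145 kb and held 8 IDR summits, beside 4, 9 and 7 top regions in replicates 1, 2 and 3. No IDR summit lay nearer than 4989 bp to a start site of *NetA* or *NetB*.

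The Netrin receptor gene *fra* had the strongest distal peak of the list. It lay in an intron at 2R 12538197 to 12538352, 9244 bp downstream of the TSS, with a pooled signal of 306 and a pooled rank of 663. Its ranks were 640, 769 and 500 in replicates 1, 2 and 3, so all replicates placed it alike. A second *fra* peak, 11844 bp from the TSS, had a signal of 145 and ranks of 2767, 2744 and 2112. *sli* had a peak in an intron, at 3775 bp from its nearest TSS, with a signal of 187 and ranks of 3583, 1163 and 2423. *robo1*, *comm* and *Dscam1* had no distal IDR peak.

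*robo2* had a peak upstream of the gene, with the summit 2489 bp before its TSS. Its pooled signal was 211, and its ranks were 4347, 945 and 1025 in replicates 1, 2 and 3, so it fell just outside the top regions of replicate 1. *Fas2* had a peak in an intron, 3524 bp downstream of the TSS, with a pooled signal of 141. It ranked 1958 in replicate 1, 10781 in replicate 2 (q = 0.58) and 1075 in replicate 3. The *Fas2* peak was high in 2 replicates and far lower in replicate 2.

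Outside the guidance genes, distal IDR peaks lay at *pros* and *insc* among the neuroblast genes, at *Sh* and *Shab* among the channels, and at *elav* and *fne*. *pros* had 2, of which the one in a non-coding exon, 20219 bp from the nearest TSS, had 184 as its pooled signal and ranked 3550, 1313 and 1424 in replicates 1, 2 and 3. The other, in an intron 3882 bp upstream of an internal TSS, had a signal of 126 and ranks of 6726, 2278 and 3233. *insc* had a peak 2020 bp upstream of a TSS, where *sktl*, a phosphoinositide kinase gene, has a TSS at the same distance, with a signal of 177 and ranks of 2412, 1856 and 2580. Its second peak, in an intron and also inside *sktl*, had a signal of 147. The *fne* peak, in an intron 8584 bp downstream, had a signal of 128 and ranks of 5205, 3356 and 3241. The channel peaks were the weakest outside the guidance genes: *Sh* had a signal of 110 with ranks of 2861, 4789 and 6276, and *Shab* a signal of 107 with ranks of 4547, 4564 and 5691.

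**Figure D3:**
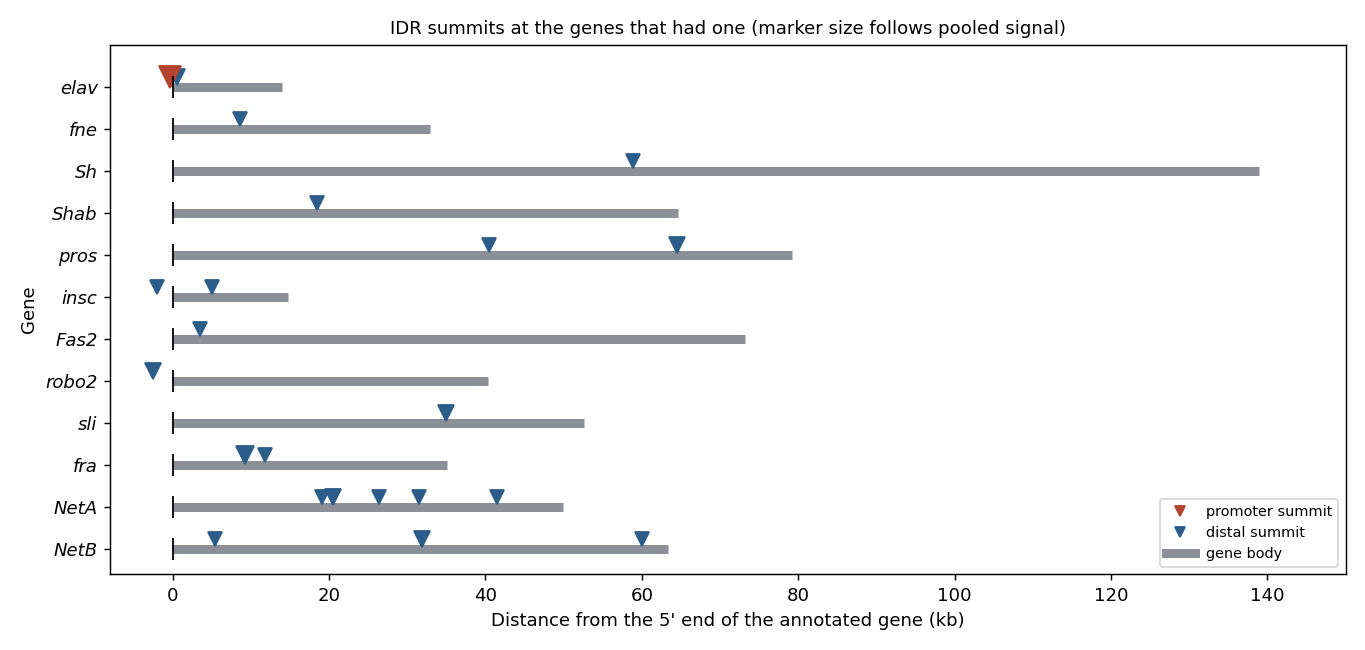
IDR summits at the 12 genes that had any, as the distance (kb) from the 5' end of the annotated gene (tick), with the gene body as a grey bar, the promoter summit in red and distal summits in blue, and marker size following pooled signal. The red summit of *elav* is the only one at a start site, and *NetA* and *NetB* carry 5 and 3 summits inside the gene.

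At the 22 IDR summits of the neural genes, 7 short words were searched on both strands within 100 bp of the summit. GAGAG was in 9 of 22 windows (40.9%), beside 20.9% of the 4060 IDR windows of the same length and 22.8% of the 2020 IDR windows that are no promoter peak. AACAAT, a word of the kind that Sox proteins recognise, was in 7 of 22 (31.8%), beside 25.5% of all windows and 25.6% of the non-promoter ones. Within 50 bp of the summit it was in 3 of 22 (13.6%), beside 13.9% of all windows, so its share was then no higher, while GAGAG was in 6 (27.3%), beside 9.68% of all and 11.0% of the non-promoter windows. Within 100 bp ACAAAG was in 3 (13.6%), beside 13.4% of all windows, and ACACAC in 4 (18.2%), beside 12.7% of all and 15.3% of the non-promoter windows. CACCTG, an E-box core, was in 1, at *Fas2* (4.55%), beside 4.68%. The word CAGGTAG, known for the factor Zelda, was in none of the 22, beside 0.788% of all and 1.04% of the non-promoter windows. The same held for TATCGATA, known for the factor DREF, which was in 3.45% of all windows but in 0.248% of the non-promoter windows, the kind to which 21 of the 22 belong. These words do not contain each other. With 22 windows these shares are imprecise, and they were not tested. A match is a word in the sequence and says nothing of which factor is there.

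The replicates ranked the 22 IDR peaks of these genes with some differences. Of the 22, 11 (50%) overlapped a top region of every replicate, beside 66.4% of all 4060 IDR peaks. The overlap was lowest in replicate 1, with 14 of 22 (63.6%), beside 83.5% of all IDR peaks. In replicates 2 and 3 it was 19 (86.4%) and 17 (77.3%), beside 89.0% and 83.4%. The median rank of the 22 peaks was 3205, 2150 and 2133 in replicates 1, 2 and 3. The *Shab* peak overlapped no top region in any replicate, although it was in the IDR set. The widest spread was at the *NetB* peak in a non-coding exon, which ranked 26916 in replicate 1 (q = 0.881), 2575 in replicate 2 and 1339 in replicate 3. With only the IDR peaks that overlap a top region of both replicates 1 and 2, which leaves out replicate 3, 7 genes had a distal peak (18.4%), beside 7.01% of all genes. With replicates 2 and 3 there were 9 (23.7%), beside 7.6% of all genes, and with replicates 1 and 3 there were 8 (21.1%), beside 6.85%. The promoter peak of *elav* stayed in each case.

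**Figure D4:**
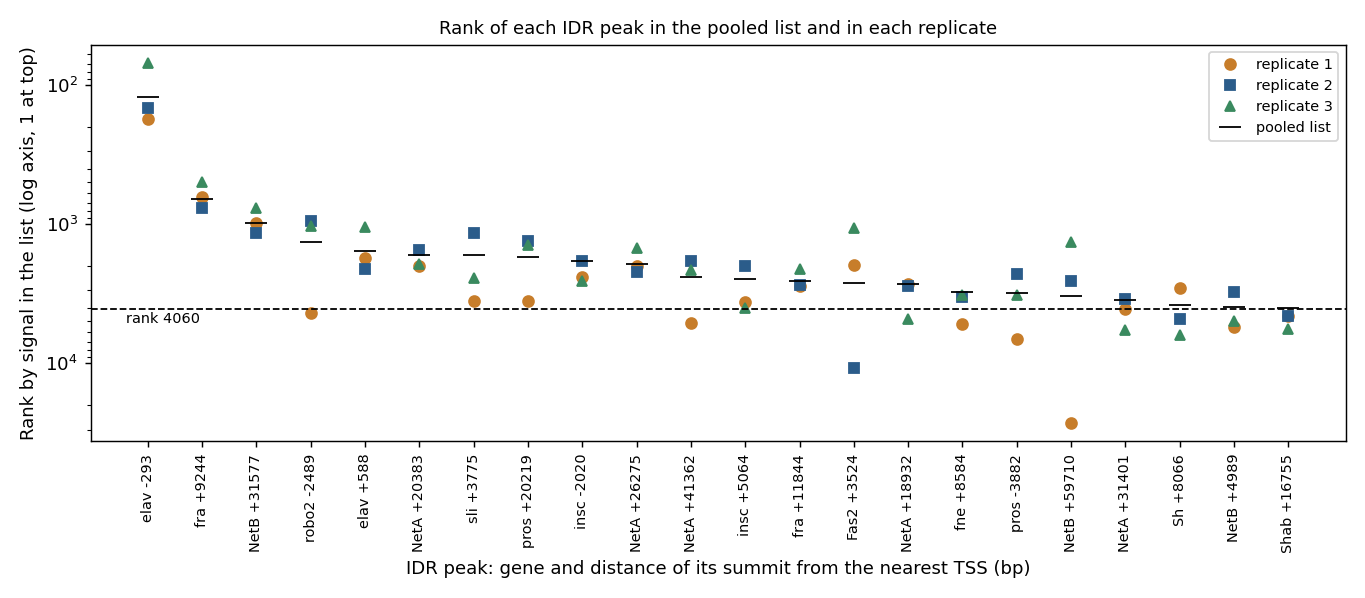
Rank by signal (log axis, 1 at the top) of the 22 IDR peaks of the neural genes in the pooled list (bars) and in replicates 1, 2 and 3 (symbols), ordered by pooled rank and labelled by gene and summit distance from the nearest TSS. The *elav* promoter peak ranks between 69 and 175 in the replicates, while the *Fas2* and *NetB* +59710 peaks each have a replicate far below the dashed line at rank 4060.

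The 26 genes with no IDR peak of either kind were *Rbp9*, the vesicle release genes *nSyb*, *Syt1*, *Syx1A* and *brp*, the channel genes *para*, *eag*, *slo* and *cac*, *Appl* and *futsch*, the glial genes *repo*, *gcm* and *gcm2*, all 4 proneural genes, *ase*, *nerfin-1*, *wor*, *dpn*, *mira*, *robo1*, *comm* and *Dscam1*. The median distance from their start sites to the closest IDR summit was 13761 bp (range 1871 to 73453). For 17 of the 26 genes (65.4%) that summit was within 500 bp of the TSS of another gene. Of all 4060 IDR peaks, 50.2% lay within 500 bp of a TSS. *ac*, *sc* and *l(1)sc* shared the same nearest summit, which is counted once for each of them. Peaks of neighbours lay close to some of them, with pooled signals between 110 and 852 in the cases below, beside a median of 167 over the IDR set. The summit at -3471 bp from the *Syx1A* TSS belonged to the promoter of CG18428 and had a pooled signal of 852, and that at -4447 bp from the *eag* TSS belonged to *pdgy* (391). The summit nearest to *nSyb*, at -1871 bp, was at the promoter of *Bgb* (170), that nearest to *dpn*, at -5105 bp, was at *pnut* (110), and that nearest to *Appl*, at -6982 bp, was the *elav* promoter peak.

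The achaete-scute complex held no IDR summit over the 93.1 kb from *ac* to *ase*. The pooled list had 7 regions there, the highest at a signal of 75.2 and a rank of 6651, at X 457804 to 458253. No replicate had a top region in the interval. Between *gcm* and *gcm2*, over 33.2 kb, the IDR set had none and the pooled list 7 regions, the highest with a signal of 103 and a rank of 4230, just below the IDR set. Replicates 1 and 3 each had 1 top region in that interval and replicate 2 had 0. The bodies of all protein-coding genes held 1.87 IDR summits per 100 kb outside promoter windows. Their promoter windows held 13.3 per 100 kb. The 2 intervals hold promoter windows and sequence between genes too, so neither density applies to them directly. Whether they held fewer summits than other intervals of their length was not tested. *gcm*, *gcm2*, *ac*, *sc*, *wor* and *mira* had neither a promoter nor a distal region in the pooled list.

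A further 64 genes of the same processes, put together by role, were counted in the same way. They were long too, with a median body of 15.3 kb, beside 2.17 kb over all protein-coding genes. Their bodies outside promoter windows held 1.49 IDR summits per 100 kb, beside 1.87 over all protein-coding genes, so their density was not higher. In the IDR set 7 of 64 (10.9%) had a promoter peak, beside 18.7% of all protein-coding genes, and 16 (25.0%) had a distal peak, beside 9.21%. The 7 were *numb*, which encodes a Notch inhibitor segregated in asymmetric division (signal 475), the Netrin receptor gene *unc-5* (380), the blood-brain barrier gene *moody* (339), the ubiquitin ligase gene *neur* (332), the potassium channel gene *sei* (216), the Semaphorin receptor gene *PlexA* (161) and the transcription factor gene *pnt* (129). The *sei* summit was also within 500 bp of the TSS of *gammaSnap1*. In the replicates' top regions the promoter share of the 64 genes was 13.5% ± 0.902 (SD, n = 3). None of the 12 synapse and transmitter genes among them had an IDR promoter peak.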

How the data were processed

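Whole embryos of the CG12104-GFP line were profiled by ChIP-seq in 3 biological replicates, numbered as in the labels. Per the text lists deposited with the peaks, the authors called the regions of each replicate on that replicate against 1 control alignment and the pooled list on all replicates together, and derived the IDR set from these lists. Neither the caller nor the aligner is named: they are not given in sources used here. The deposited signal is the caller's value per region and is not scaled between lists, and the authors also deposited the -log10 of a q value, printed here as q. The permissive pooled list reaches a q of 0.96 and the IDR set 0.0152. These lists hold no read counts, so depth is unknown. The dm3 lists were not used, as genes were assigned only in dm6. Genes were taken from Ensembl release 115 (BDGP6) and sequence from NCBI Release 6, and all dm6 regions ended within its chromosomes.

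Summits were assigned to genes with Python 3.11.15, numpy 2.4.6, pandas 2.3.3 and scipy 1.17.1, and the assignment was tested on planted summits. Shares are beside all protein-coding genes on the 6 arms with IDR peaks. Each IDR peak took the highest overlapping region (1 bp) in each replicate. Members, the further list (64 genes used) and the words were chosen with earlier results of these data known, so no test was made on them. By rule, every gene with an IDR peak is named, and at most 10 further genes with a promoter peak. Other genes were named to account for the list. Alternatives changed the windows, thresholds, overlaps and replicates.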

Additional observations from a re-analysis of the deposited data

How the results depend on the processing

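The count of 1 gene with a promoter IDR peak was the same with the 2030 strongest peaks and with peaks overlapping top regions of every replicate. It was also 1 without replicate 1, 2 or 3 and with nearest-TSS assignment. These settings keep only a part of the IDR peaks or assignments, so the count could not rise, and *elav* ranked high enough to stay. The share of all genes fell under them from 18.7% to between 11.1% and 14.7%. With a 1000 bp window the count was 1, beside 21.3% of all genes. The count was 0 with a 200 bp window, as the *elav* summit lies 293 bp away, beside 12.2% of all genes. It was 0 among the 19 genes of at least 20 kb, as *elav* is shorter, beside 24.5% of all genes of that length. In the pooled list it was 18, beside 46.2% of all genes. The count of 12 genes with a distal peak was 7 with overlap of top regions in every replicate, by 1 bp or by 0.5 of the peak's length, where the share of all genes fell too, to 6.46% and 6.3% against 9.21%. It was 7 to 9 without a replicate, beside 6.85% to 7.6% of all genes, and 32 in the pooled list, beside 44.7%. It was 8 to 12 of the 38 genes under the other settings, beside 5.06% to 12.5% of all genes. Among genes of at least 20 kb it was 10 of 19, beside 44.0% of all genes of that length. With 50 bp to each side of the summit, AACAAT was in 3 peaks (7 with 100 bp), ACACAC in 2 (4) and CACCTG in 0 (1). These windows are shorter, and the shares of all 4060 IDR windows fell too. They fell from 25.5% to 13.9% for AACAAT, from 12.7% to 6.08% for ACACAC and from 4.68% to 2.22% for CACCTG. No paired analysis was possible because there is 1 group. Depth is unknown, and 38 genes allow only wide intervals.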
